A study of Rattus norvegicus with 6 samples.

Results

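The SLC25 genes encode the mitochondrial carriers, the largest family of solute carriers in the cell. Most of these proteins sit in the inner mitochondrial membrane and exchange nucleotides, phosphate, amino acids, carboxylates and cofactors between the matrix and the cytosol. In brain they supply ADP to ATP synthase, move glutamate and aspartate for the malate-aspartate shuttle, and bring iron, folate and S-adenosylmethionine into the matrix. The members were all gene symbols beginning with Slc25a in 6 deposited tables of gene expression from rat brain. There were 48 such symbols among 30076 in all, on 18 chromosomes, 3 of them on the X chromosome.

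The study compared tissue labelled prefrontal cortex from 3 untreated and 3 manipulated rats, each rat giving 1 RNA library. All were male rats of the F344 strain, 18 months old, and all were anaesthetised, with isoflurane at 1.5 to 3% stated for the manipulated rats. The manipulated rats (animals 4, 5 and 6) were given 7 days of cranial osteopathic manipulation, in which a practitioner works on the head by hand, and the untreated rats (animals 1, 2 and 3) were not. A coronal section 1 mm thick was taken, so each library mixes the RNA of all cell types in it, and fewer cells of a type and less RNA per cell cannot be told apart. Levels are given in FPKM, a fragment count divided by the length of the transcript and the mapped total of the library, units that allow levels of different genes to be set side by side.

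Over 10657 tested genes the median log2 fold change (manipulated minus untreated, on log2 of FPKM plus 1) was -0.36, and it was 0.01 after median-ratio scaling, which divides each library by the median ratio of its genes to their geometric mean over libraries. The median tested gene had 5.50, 3.98 and 5.17 FPKM without manipulation, against 4.01, 4.07 and 2.75 FPKM with it, with an exact two-sided permutation p of 0.3 where 0.1 is the smallest that 3 against 3 can give. Read totals are unknown. Loci with no gene name numbered 51528 to 83180 in untreated and 17102 to 36546 in manipulated tables. Cortical excitatory neuron markers were all tested (7 of 7), with a summed level of 249 to 311 FPKM in untreated and 212 to 370 FPKM in manipulated libraries. The single markers went both ways, 3 above 0 and 4 below, with log2 fold changes from -1.09 (Neurod6) to 0.62 (Tbr1). Of these 7, 0 passed limma (0.357% of all tested genes did). Markers of thalamic and hypothalamic neurons summed to 87.9 to 132 FPKM in untreated and 9.12 to 10.8 FPKM in manipulated libraries, and 5 of 6 tested genes passed limma as lower (0.272% of all tested genes did), or 4 after median-ratio scaling (0.198%). Markers of striatal neurons summed to 31.0 to 50.4 and 54.6 to 152 FPKM. Of 6 tested, 0 passed limma (0.357% of all tested genes did) and 6 had an unadjusted p under 0.05 (15.1%). Summed levels of the other lists, untreated and then manipulated, were 105 to 166 and 105 to 167 FPKM for interneurons, 1010 to 1372 and 697 to 1102 for oligodendrocytes, 41.3 to 58.4 and 29.1 to 44.9 for microglia, 24.7 to 30.8 and 16.1 to 29.9 for endothelium, and 457 to 466 and 238 to 1230 for choroid plexus. The labels place the section at the dorsal end of that cortex and give no coordinate for each rat. The part of these differences in the carrier values was not tested.

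Carrier levels ran from above 100 FPKM to near 0, and neighbouring genes could lie at both ends. Slc25a23 and Slc25a41 encode ATP-Mg/phosphate carriers and follow each other on chromosome 9 with 843 bases between their rows (Rnor_6.0), yet their means over 6 libraries were 35.3 and 0.0187 FPKM. The 250 bases before the start site are printed for both, with Slc25a4, the member of highest level, and Slc25a18, a carrier of astrocytes. They come from RefSeq on the build GRCr8, at chr9:1985366-1985615 (minus strand) for Slc25a23, chr9:1968389-1968638 (minus strand) for Slc25a41, chr16:52805271-52805520 (plus strand) for Slc25a4 and chr4:155672919-155673168 (plus strand) for Slc25a18. Capitals mark CG dinucleotides, the sites of DNA methylation that are dense in CpG island promoters.
Slc25a23: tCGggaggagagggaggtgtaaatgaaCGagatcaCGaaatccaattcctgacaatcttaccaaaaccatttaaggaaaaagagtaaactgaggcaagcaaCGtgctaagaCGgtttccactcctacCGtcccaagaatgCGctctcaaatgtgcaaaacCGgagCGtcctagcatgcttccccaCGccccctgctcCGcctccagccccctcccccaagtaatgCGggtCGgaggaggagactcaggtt
Slc25a41: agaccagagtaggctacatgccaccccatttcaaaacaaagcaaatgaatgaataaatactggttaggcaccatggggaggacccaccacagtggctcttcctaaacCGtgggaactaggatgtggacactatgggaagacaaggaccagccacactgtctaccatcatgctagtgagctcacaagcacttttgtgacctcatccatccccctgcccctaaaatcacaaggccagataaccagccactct
Slc25a4: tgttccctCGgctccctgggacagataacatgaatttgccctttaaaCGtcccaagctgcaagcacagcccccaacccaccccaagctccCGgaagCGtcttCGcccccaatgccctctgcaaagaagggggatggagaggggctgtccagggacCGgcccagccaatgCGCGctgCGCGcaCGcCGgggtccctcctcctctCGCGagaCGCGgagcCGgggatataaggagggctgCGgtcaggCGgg
Slc25a18: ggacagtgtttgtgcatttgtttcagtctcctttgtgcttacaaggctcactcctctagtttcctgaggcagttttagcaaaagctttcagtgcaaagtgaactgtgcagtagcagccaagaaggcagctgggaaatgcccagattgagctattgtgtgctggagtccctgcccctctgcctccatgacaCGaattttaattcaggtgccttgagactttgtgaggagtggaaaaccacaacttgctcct
The stretch of Slc25a23 holds 13 CG dinucleotides and that of Slc25a41 holds 1. Slc25a4 has 19, while Slc25a18 has 1 at a mean level of 7.13 FPKM, so a CG-poor start was not always that of a low gene.

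Of the 48 members 38 had a single promoter entry in the RefSeq table. The 27 averaging 1 FPKM or more had a median of 16 CG dinucleotides in 250 bases, with a range of 1 to 36, and the 11 lower ones a median of 7, with a range of 1 to 40. All 6934 matched genes at or above that level had a median of 17, and the 4492 below it a median of 5. Spearman's rho between CG count and mean level was 0.46 over the 38 members and 0.51 over 11426 genes, across genes that share base composition and are not independent replicates. The CCAAT box, searched as the letters CCAAT on both strands, was present in 20 members (52.6%) and in 34.4% of all 24206 single promoters. Of the TATA box only the letters TATAAA were searched, on both strands. They were present in 1 member, Slc25a38 (2.63%), and in 13.3% of all promoters. Related letters were not counted, such as the TATAAG in the printed stretch of Slc25a4. These are matches of letters, not sites shown to be used. The shares of all promoters cover genes of any level, while 27 of the 38 members averaged 1 FPKM or more. Shares among genes of matched level were not computed.

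**Figure D1:**
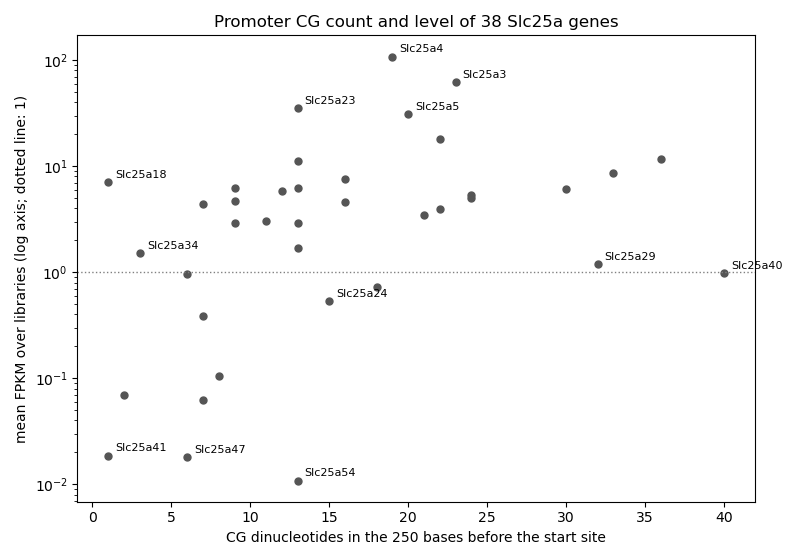
Number of CG dinucleotides in the 250 bases before the start site (x axis) against mean FPKM over libraries (y axis, log scale) for 38 Slc25a genes, 1 point a gene. Slc25a41, Slc25a47 and Slc25a54 lie lowest, Slc25a18 has 1 CG at 7.13 FPKM, and Slc25a40 has the most, 40, at 0.988 FPKM.

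Of the 48 members 30 were tested, 14 had a mean under 1 FPKM, and 4 shared a row with another symbol in at least 1 library. Levels were led by carriers of energy metabolism. Slc25a4, Slc25a3, Slc25a23 and Slc25a5 together made up 58.5 to 65.5% of the summed carrier FPKM of each library. The order Slc25a4, Slc25a3, Slc25a23, Slc25a5, Slc25a11, Slc25a12 held in all 6 libraries. Slc25a12 and Slc25a22 changed places between libraries, with Slc25a12 higher in 3 of 6, and so did Slc25a39, Slc25a28 and Slc25a18 further down.

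**Figure D2:**
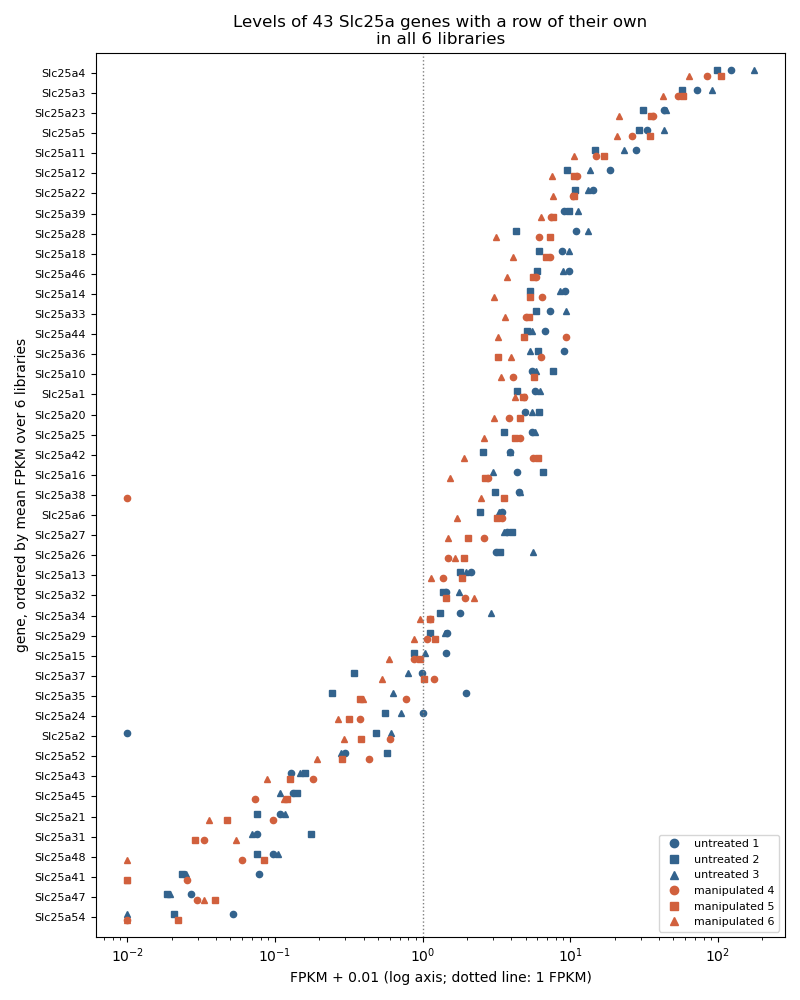
FPKM plus 0.01 (x axis, log scale) in each of the 6 libraries for 43 of the 44 Slc25a genes with a row of their own in every library, ordered by mean level. Blue points are untreated and orange points manipulated rats. The groups overlap for most genes, and Slc25a38 is at 0 in manipulated replicate 4.

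No carrier gene passed the test between groups as deposited. By limma, 0 of 30 had an adjusted p under 0.05 (0.357% of all tested genes had, 0.272% lower and 0.0845% higher), with adjusted p from 0.270 to 0.850, and 5 of 30 (16.7%) had an unadjusted p under 0.05, against 15.1% of all tested genes. The log2 fold change was below 0 for 28 of 30 members (93.3%) and for 87% of all tested genes. All 3 manipulated libraries lay below all 3 untreated ones in 9 of 30 members (30%) and in 23.7% of all tested genes, and they lay above in 0 members and in 1.08% of genes. The members' median log2 fold change was -0.45, against -0.36 for all tested genes. After median-ratio scaling the members' median was -0.05, with 18 lower and 12 higher, while 49% of all genes were lower, and 0 of 30 passed (0.292% of genes, 0.198% lower and 0.0943% higher), with 1 unadjusted p under 0.05 (11.1% of genes). Then 23 of 30 members had a log2 fold change within 0.25 of 0, a count with no share of all tested genes to set beside it.

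The summed FPKM of the 44 members with a row of their own in every library was 462, 354 and 539 in untreated and 336, 367 and 238 in manipulated rats. The groups overlapped, manipulated replicate 5 lying above untreated replicate 2, and the ratio of means was 0.694. With median-ratio scaling the sums were 345, 369 and 432 against 355, 372 and 365, a ratio of 0.953. The median tested member stood at the 54.6th to 62.3rd percentile of tested genes in untreated libraries and at the 55.7th to 60.4th in manipulated ones, a measure within a library that scaling does not move.

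**Figure D3:**
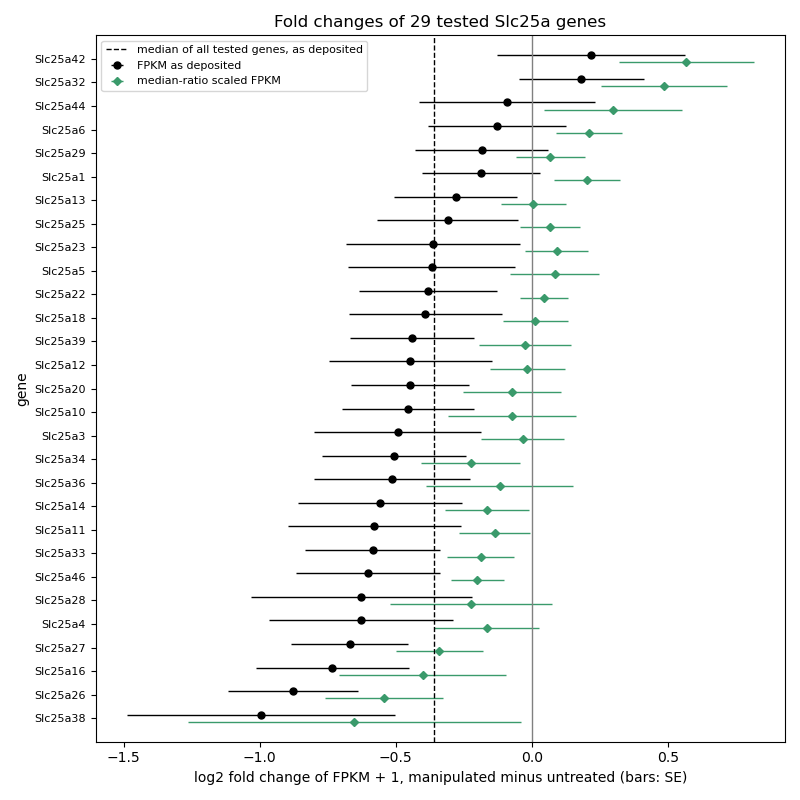
Log2 fold change of FPKM plus 1, manipulated minus untreated (x axis), for 29 of the 30 tested Slc25a genes, with bars of 1 standard error. Black circles are values as deposited, beside the dashed line at -0.36, the median of all tested genes, and green diamonds are median-ratio scaled values. The medians over all 30 were -0.45 and -0.05.

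Carriers of ADP, ATP and phosphate held the largest part of the family's FPKM. Slc25a4, the ADP/ATP carrier of heart, muscle and brain (chromosome 16, 49266903 to 49270698, Rnor_6.0), had 123, 98.3 and 175 FPKM in the 3 untreated rats against 84.0, 105 and 64.1 FPKM in the manipulated ones. The groups overlapped in 1 library, manipulated replicate 5. Its log2 fold change was -0.63 (SE 0.34), with a limma adjusted p of 0.333, and -0.17 after median-ratio scaling. Slc25a5, the ADP/ATP carrier of dividing and many other cells (X chromosome, 123404518 to 123407645), had 33.1, 29.4 and 43.1 FPKM and 26.3, 34.7 and 20.8 FPKM. That is a log2 fold change of -0.37 (SE 0.31), close to the median of all genes, and 0.08 after median-ratio scaling. Slc25a6, a symbol with a short row on chromosome 18 that was not counted among the ADP/ATP carriers here, had 3.06 ± 0.561 and 2.79 ± 0.954 FPKM (SD, n = 3). RefSeq lists several pseudogenes of Slc25a5, and how fragments of such copies were divided between rows is not given in the sources used here, so these values are uncertain.

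Slc25a4 made up 78.8, 77.0 and 80.2% of the FPKM of Slc25a4 plus Slc25a5 in untreated rats and 76.2, 75.1 and 75.5% in manipulated rats. Every manipulated library was lower, by 3.07 percentage points in the mean, with an exact two-sided permutation p of 0.1, the smallest possible, and 0.3 after Benjamini-Hochberg adjustment over 6 pairs. The share is taken within a library, so scaling between libraries does not enter it.

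Slc25a3, which brings phosphate into the matrix (chromosome 7, 31816602 to 31824071), had 71.6, 57.2 and 90.8 FPKM in the 3 untreated rats against 53.5, 58.0 and 42.2 FPKM in the manipulated ones, for a log2 fold change of -0.49 (SE 0.31), or -0.03 after median-ratio scaling. It made up 15.5 to 17.7% of the carrier sum in every library. Slc25a23, an ATP-Mg/phosphate carrier regulated by calcium, had 43.0, 31.2 and 44.5 FPKM and 36.5, 35.3 and 21.3 FPKM, with manipulated values on both sides of untreated replicate 2. Its log2 fold change was -0.36 (SE 0.32), and 0.09 after median-ratio scaling. Of the related Slc25a25, Slc25a24 and Slc25a41, only Slc25a25 was tested, at 4.94 ± 1.22 and 3.80 ± 1.04 FPKM (SD, n = 3).

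Slc25a12, the calcium-regulated aspartate/glutamate carrier of neurons (chromosome 3, 57881520 to 57957346), had 18.6, 9.57 and 13.6 FPKM in the 3 untreated rats against 11.0, 10.6 and 7.56 FPKM in the manipulated ones. Its log2 fold change was -0.45 (SE 0.30) with a limma adjusted p of 0.376, and -0.02 after median-ratio scaling. Slc25a13, the form best known from liver, had 2.11, 1.78 and 1.95 FPKM against 1.37, 1.83 and 1.12 FPKM, with overlap. Its means were 1.95 ± 0.169 and 1.44 ± 0.359 FPKM (SD, n = 3). Slc25a12 made up 87.2 ± 2.73% and 87.1 ± 1.85% of the pair's FPKM (SD, n = 3), with an exact permutation p of 1.

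Slc25a22 and Slc25a18 carry glutamate with protons, and Slc25a18 is known from astrocytes. Slc25a22 (chromosome 1, 213973489 to 213981330) had 14.2, 10.7 and 13.1 FPKM against 10.4, 10.6 and 7.58 FPKM, groups that did not overlap, by a narrow margin. The deposited interval of the value of 10.6 FPKM in manipulated replicate 5 ran from 0 to 38.6, past every untreated value. Its log2 fold change was -0.38 (SE 0.25), close to the median of all genes. Slc25a18 had 8.74, 6.09 and 9.74 FPKM against 7.27, 6.81 and 4.09 FPKM, for a log2 fold change of -0.39 (SE 0.28). Slc25a18 made up 39.0 ± 3.29% and 38.5 ± 3.12% of the pair (SD, n = 3), with an exact permutation p of 0.8. Of 6 astrocyte markers 4 were tested, all 4 with a log2 fold change below 0 (as 87% of all tested genes had). Of these 4, 0 passed limma (0.357% of all tested genes did). Their median was -0.71 as deposited and -0.24 after median-ratio scaling, where Gja1 had 0.13. The untested Aqp4 had 31.1 FPKM over 3 untreated and 19.4 FPKM over 3 manipulated libraries. The untested Slc1a3 had 29.7 FPKM over 3 untreated and 32.2 FPKM over 2 manipulated libraries, with no value for manipulated replicate 6. The 4 tested markers had a summed level of 266 to 356 FPKM in untreated and 157 to 259 FPKM in manipulated libraries.

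Slc25a11, the 2-oxoglutarate/malate carrier and partner of Slc25a12 in the malate-aspartate shuttle (chromosome 10, 57265704 to 57268081), had 27.7, 14.8 and 23.2 FPKM in the 3 untreated rats against 14.8, 16.9 and 10.6 FPKM in the manipulated ones. Untreated replicate 2 lay within the manipulated range, and the log2 fold change was -0.58 (SE 0.32), or -0.14 after median-ratio scaling. Slc25a10, the dicarboxylate carrier, had 5.50, 7.68 and 5.82 FPKM against 4.06, 5.71 and 3.40 FPKM, with overlap, for a log2 fold change of -0.46 (SE 0.24). Slc25a1, the citrate carrier, had 5.44 ± 0.995 and 4.62 ± 0.376 FPKM (SD, n = 3). Slc25a20, which exchanges carnitine and acylcarnitines for fatty acid oxidation (chromosome 8, 117455262 to 117476734), had 4.91, 6.09 and 5.54 FPKM against 3.81, 4.53 and 3.06 FPKM. Its groups did not overlap, and its log2 fold change was -0.45 (SE 0.22), with a limma adjusted p of 0.328. After median-ratio scaling it was -0.07 and the groups overlapped.

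**Figure D4:**
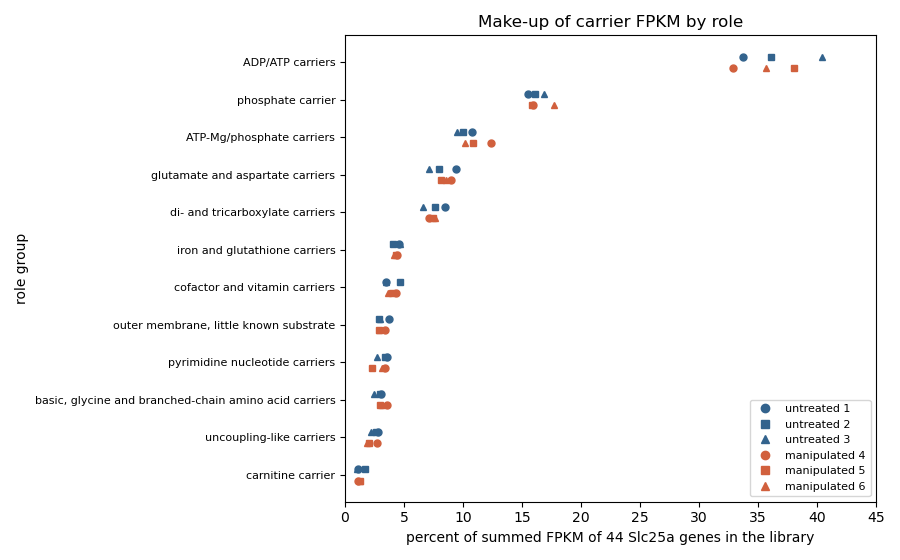
Percent of the summed FPKM of 44 Slc25a genes (x axis) that each role group takes in each library, 1 point a library. ADP/ATP carriers (Slc25a4, Slc25a5 and Slc25a31) take 32.8 to 40.4%, the phosphate carrier 15.5 to 17.7%, and blue (untreated) and orange (manipulated) points overlap in every group.

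Among the carriers of cofactors were the member of smallest p and the only tested members with a higher mean log2 value in manipulated rats. Slc25a26, which brings S-adenosylmethionine into the matrix for methylation (chromosome 4, 126522326 to 126615314), had 3.16, 3.33 and 5.55 FPKM in the 3 untreated rats against 1.47, 1.89 and 1.66 FPKM in the manipulated ones. The groups did not overlap, and the manipulated mean was 0.417 of the untreated one. The log2 fold change was -0.88 (SE 0.24) with a limma unadjusted p of 0.00492 and an adjusted p of 0.270. It was the 1 member that passed in 2 other settings, in which far more genes passed. Its adjusted p was 0.0285 among genes above 0 in all 6 libraries (a setting added after the data were seen), where 4.34% of all genes passed, and 0.0292 with weights per library, where 8.82% did. After median-ratio scaling its log2 fold change was -0.54, the groups overlapped (2.35, 3.46 and 4.45 against 1.55, 1.92 and 2.54 scaled FPKM), and the unadjusted p was 0.0459. The deposited FPKM interval of untreated replicate 2 was wide, from 0.634 to 6.02.

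Slc25a16, a carrier linked to coenzyme A (chromosome 20, 27254984 to 27308069), had 4.33, 6.49 and 3.01 FPKM against 2.77, 2.66 and 1.52 FPKM, for a log2 fold change of -0.73 (SE 0.28, limma adjusted p 0.326). The groups did not overlap as deposited but did after median-ratio scaling, where the log2 fold change was -0.40. Slc25a42 and Slc25a32 were named after their values were seen, as the 2 members of 30 with a log2 fold change above 0. Slc25a42, which carries coenzyme A, had 3.88, 2.57 and 3.91 FPKM against 5.58, 6.07 and 1.89 FPKM, so that manipulated replicates 4 and 5 lay above and replicate 6 below every untreated library, the last with a deposited interval of 0 to 4.51. The log2 fold change was 0.22 (SE 0.35), 0.57 after median-ratio scaling, and -0.01 without manipulated replicate 5, where the row of Slc25a42 was longest, 3.41 times its shortest span. Slc25a32, which carries folate and flavin cofactors, had 1.43, 1.36 and 1.76 FPKM against 1.93, 1.44 and 2.23 FPKM, for a log2 fold change of 0.18 (SE 0.23), and after median-ratio scaling its 3 manipulated libraries lay above the untreated ones, at 1.46 to 3.41 against 1.07 to 1.41 scaled FPKM. It was the 1 member of 30 of which this held, against 10.7% of all tested genes, and its adjusted p was then 0.486.

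Of the carriers related to uncoupling proteins, Slc25a27 was the one that stood apart by its intervals. Slc25a27 (chromosome 9, 19880473 to 19907458), expressed mainly in neurons, had 3.75, 4.01 and 3.56 FPKM in the 3 untreated rats against 2.61, 2.01 and 1.48 FPKM in the manipulated ones. The deposited FPKM intervals of the untreated libraries, down to 3.22, lay above those of the manipulated ones, up to 2.87. It was the 1 member of 30 of which this held, and it held for 4.4% of all tested genes. The log2 fold change was -0.67 (SE 0.22), with a limma unadjusted p of 0.0125 and an adjusted p of 0.309. After median-ratio scaling it was -0.34 (SE 0.16), and the manipulated libraries were still below the untreated ones, by a margin of 2.76 against 2.79 scaled FPKM. Slc25a14, a relative of higher level in these tissues, had 9.18, 5.31 and 8.46 FPKM against 6.47, 5.33 and 3.03 FPKM, with overlap. Slc25a27 made up 33.9 ± 7.93% and 29.7 ± 2.83% of the pair (SD, n = 3), with an exact permutation p of 0.5. Slc25a30, the third relative, shared a row with Cog3 in manipulated replicate 5 and was listed at 0 in untreated replicate 2, and had 2.56 and 2.31 FPKM in the other untreated and 1.75 and 1.24 FPKM in the other manipulated rats.

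Slc25a28, the mitoferrin of non-erythroid cells (chromosome 1, 263420045 to 263431290), had 11.0, 4.30 and 13.1 FPKM in the 3 untreated rats against 6.11, 7.27 and 3.15 FPKM in the manipulated ones. Untreated replicate 2 was lower than 2 of the manipulated libraries, and the log2 fold change was -0.63 (SE 0.41). Slc25a37, the mitoferrin of red cell precursors, was below the filter, with 0.977, 0.335 and 0.789 FPKM against 1.18, 1.02 and 0.521 FPKM. Slc25a28 made up 91.8, 92.8 and 94.3% of the pair in untreated and 83.8, 87.7 and 85.8% in manipulated rats, lower in every manipulated library by 7.21 percentage points in the mean. The exact permutation p was 0.1, the smallest possible, and 0.3 adjusted over the 6 pairs. The red blood cell marker Hbb had 93.4, 91.8 and 112 FPKM in untreated and 39.0, 54.9 and 41.5 FPKM in manipulated libraries, and Alas2 had 1.37, 2.25 and 1.16 against 1.94, 0.887 and 1.70 FPKM. Their part in the balance was not tested.

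**Figure D5:**
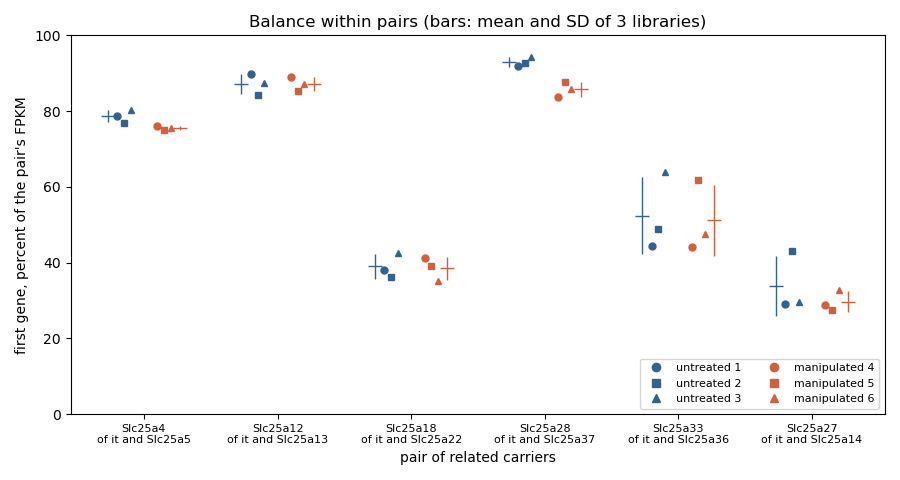
Percent of a pair's FPKM taken by the first gene (y axis) in each library for 6 pairs of related carriers, with the mean and SD of 3 libraries as a bar. Untreated and manipulated points are apart for Slc25a4 with Slc25a5 and for Slc25a28 with Slc25a37, and overlap in the other 4 pairs.

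Slc25a39, which brings glutathione into the matrix (chromosome 10, 90351900 to 90356242), had 9.01, 9.73 and 11.3 FPKM in the 3 untreated rats against 7.38, 7.61 and 6.30 FPKM in the manipulated ones. Its groups did not overlap, and it had a log2 fold change of -0.44 (SE 0.23) that became -0.02 after median-ratio scaling. Its relative Slc25a40 shared a row with U1 in 3 libraries and had 0.971 FPKM in untreated replicate 2 and 0.998 and 0.995 FPKM in manipulated replicates 5 and 6. Slc25a33 (chromosome 5, 166701465 to 166726794), a pyrimidine nucleotide carrier, had 7.29, 5.81 and 9.32 FPKM against 5.03, 5.26 and 3.59 FPKM, without overlap, for a log2 fold change of -0.58 (SE 0.25, limma adjusted p 0.326). After median-ratio scaling it was -0.19, with overlap. Slc25a36, its relative, had 9.13, 6.09 and 5.29 FPKM against 6.36, 3.26 and 3.95 FPKM, with overlap. The share of Slc25a33 in the pair ran from 44.4 to 63.8% in untreated and from 44.2 to 61.8% in manipulated rats, the widest spread of the 6 pairs within a group, and the exact permutation p was 0.7. Adjusted over the 6 pairs, the p of the other 4 pairs was 0.96 or 1.

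Slc25a38, which supplies glycine for heme synthesis (chromosome 8, 128790348 to 128802989), had the log2 fold change farthest from 0 among the 30 tested members on the scale of FPKM plus 1, and its size rested on 1 library. Its untreated values were 4.47, 3.09 and 4.57 FPKM, and manipulated replicate 4 lists it at 0, with 3.55 FPKM in replicate 5 and 2.46 FPKM in replicate 6. No row of another gene name covered its place in replicate 4, where an unnamed locus had 0.40 FPKM. The deposited status did not mark this 0 as a failed estimate, and what lies behind it was not tested. The log2 fold change was -0.99 (SE 0.49) with a limma adjusted p of 0.330, and -0.33 without manipulated replicate 4. Of the other amino acid carriers, Slc25a44, which carries branched-chain amino acids, had 5.79 ± 0.844 and 5.80 ± 3.13 FPKM, and Slc25a29, which carries basic amino acids, 1.32 ± 0.188 and 1.05 ± 0.168 FPKM (SD, n = 3).

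Slc25a46, an outer membrane member known for its part in mitochondrial fission and in inherited neuropathy (chromosome 18, 24369125 to 24397551), had 9.76, 5.98 and 8.94 FPKM in the 3 untreated rats against 5.86, 5.63 and 3.70 FPKM in the manipulated ones. The log2 fold change was -0.60 (SE 0.27), with a limma adjusted p of 0.326. After median-ratio scaling it was -0.20 (SE 0.10), and Slc25a46 and Slc25a27 were the 2 tested members whose manipulated libraries still lay below all untreated ones, as did 8.95% of all tested genes. Slc25a34, a carrier of little known substrate, had 1.79, 1.30 and 2.88 FPKM against 1.11, 1.11 and 0.955 FPKM, without overlap, for a log2 fold change of -0.51 (SE 0.27).

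Members that share a row could be read only in part. Slc25a17, a carrier of peroxisomes, had 6.17 and 9.84 FPKM in untreated replicates 2 and 3 and 5.87, 6.04 and 3.36 FPKM in manipulated rats, and shared its row with St13 in untreated replicate 1. Slc25a51, which brings NAD into the matrix, was joined with Mcart1 in 4 libraries, a name that RefSeq gives as a synonym of Slc25a51. The rows of both names summed to 9.15, 6.49 and 6.94 FPKM in the 3 untreated rats against 6.86, 6.25 and 3.43 FPKM in the manipulated ones, with overlap.

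The 14 members below the filter had means of 0.0109 to 0.954 FPKM, and 8 of them were under 0.2 FPKM. Among these 8 were Slc25a31, an ADP/ATP carrier known from testis, and Slc25a47, known from liver, at 0.0629 and 0.0179 FPKM, beside Slc25a21, Slc25a41, Slc25a43, Slc25a45, Slc25a48 and Slc25a54. Above 0.2 FPKM were Slc25a15, Slc25a35, Slc25a37, Slc25a24, Slc25a2 and Slc25a52, from 0.954 down to 0.334 FPKM. Of the 14, Slc25a24 and Slc25a31 had all manipulated libraries below all untreated ones, and Slc25a47 had them above. For Slc25a31 and Slc25a47 the deposited FPKM intervals reached down to 0 in every library of both groups. Among 7152 genes in the same range of levels, 18.7% lay apart below and 1.92% above. Slc25a24, an ATP-Mg/phosphate carrier named after its values were seen, had 1.00, 0.549 and 0.705 FPKM in the 3 untreated rats against 0.370, 0.309 and 0.258 FPKM in the manipulated ones. Of these low carriers 4 adjoined a higher one. Besides Slc25a41 next to Slc25a23, Slc25a47 lay 14451 bases from Slc25a29 (0.0179 and 1.18 FPKM), Slc25a43 lay 19671 bases from Slc25a5 (0.129 and 31.2 FPKM) and Slc25a54 lay 4644 bases from Slc25a24 (0.0109 and 0.532 FPKM).

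Genes that work with the carriers gave no call either. Of 54 tested genes in 6 lists 0 passed limma over all genes, in either direction (0.357% of all tested genes did). By limma 6 of the 54 had an unadjusted p under 0.05, against 15.1% of all tested genes. With weights per library 4 of 54 passed (Ucp2, Timm10, Vdac3 and Ak4), where 8.82% of all genes did. Among genes above 0 in all 6 libraries Sfxn1 passed, 1 of 50, where 4.34% of all genes did. Without untreated replicate 1 Timm22 passed, 1 of 54, where 0.429% of all genes did, and both untreated libraries left then list it at 0. In each list the 2 genes of smallest p are described. The 3 tested family members of another symbol had a median log2 fold change of -0.58, where Ucp2, an uncoupling protein, had 9.89 ± 0.930 FPKM without and 5.51 ± 1.36 FPKM with manipulation (SD, n = 3), and Mtch2, an outer membrane insertase, 17.1 ± 2.23 and 11.2 ± 2.75 FPKM. The import route that inserts carriers into the inner membrane had a median of -0.27 over 11 genes, 8 below 0 and 3 above (Timm22, Tomm20 and Tomm40). In it Timm22, the insertion channel, had 3.63 FPKM in untreated replicate 1, was listed at 0 in untreated replicates 2 and 3, and had 2.83, 3.20 and 2.18 FPKM in manipulated rats. The small chaperone Timm10 had 13.1 ± 3.34 and 8.22 ± 1.68 FPKM. Tomm40 was listed at 0 in untreated replicate 3, with 14.9 and 11.0 FPKM in untreated replicates 1 and 2. Its manipulated values were 11.9, 10.4 and 7.65 FPKM. Enzymes of the malate-aspartate shuttle and the tricarboxylate cycle had a median of -0.42 over 12 genes, all 12 below 0, with Glud1, glutamate dehydrogenase, at 37.8 ± 9.91 and 22.2 ± 6.00 FPKM and Gpd1, the glycerol phosphate shuttle enzyme, at 11.9 ± 1.88 and 8.07 ± 1.99 FPKM.

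Other mitochondrial transport proteins had a median of -0.39 over 17 genes, 16 below 0 and 1 above. Sfxn1, the serine transporter, had 10.9 ± 3.82 and 4.95 ± 1.40 FPKM (SD, n = 3), and Vdac3, an outer membrane channel, 46.5 ± 11.4 and 24.3 ± 7.42 FPKM. The 6 genes of carnitine and acyl transfer had a median of -0.36, 5 below 0 and 1 above, with Acadm at 4.17 ± 0.714 and 2.66 ± 0.628 FPKM and Acadl at 6.05 ± 0.940 and 4.13 ± 1.22 FPKM, both dehydrogenases of fatty acid oxidation. The 5 genes of creatine and adenylate kinases had a median of -0.33, 4 below 0 and 1 above, with Ak4 at 5.31 ± 0.974 and 3.22 ± 0.0842 FPKM. The single genes above 0 in the last 3 lists were Mpc1, Acadvl and Ak3, with log2 fold changes of 0.18, 0.51 and 0.98 and limma adjusted p from 0.403 to 0.794. Mpc1 had 31.1, 23.1 and 46.3 FPKM in untreated against 22.0, 28.3 and 78.8 FPKM in manipulated rats. Acadvl had 6.80, 0 and 0 against 4.16, 0 and 3.37 FPKM, and Ak3 had 2.98, 7.04 and 0 against 2.16, 12.2 and 4.86 FPKM. After median-ratio scaling the 6 medians ran from -0.15 to 0.13, and 0 genes passed (0.292% of all tested genes did).

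Unnamed loci lying inside carrier genes were also fewer in manipulated rats. There were 42, 28 and 38 such loci in the untreated and 18, 18 and 25 in the manipulated libraries, in 14 to 16 and in 8 to 12 of the 48 genes. The groups did not overlap, as they did not for unnamed loci over the whole tables. Those numbered 83180, 51528 and 66414 in untreated and 35559, 17102 and 36546 in manipulated libraries. A fall in the carriers beyond that of the whole tables was not tested.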

How the data were processed

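The authors deposited 1 table of FPKM per library, made with STAR 2.7.3a and Cufflinks against Rnor_6.0; per the submitters' processing notes these are the tools and the rat build. Not given in the sources used here were the Cufflinks version, the annotation release, strand use and read totals, so depth is unknown and no counting interval is given. The FPKM intervals quoted are the lower and upper bounds of each row, per the file headers. Row starts were found to count from 0 (286 of 303 microRNA loci then match their hairpin length) and are given counting from 1.

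FPKM was summed per symbol and library. Of 30076 symbols, 3254 that shared a row with another gene, 144 at several places, 32 missing from a library and 5 with a failed estimate were left out, and 10657 of the remaining 26641 had a mean of at least 1 FPKM and were tested. The test was limma (3.58.1, under R 4.3.3), with a trend of variance on mean, on log2 of FPKM plus 1, two-sided, with Benjamini-Hochberg adjustment over all tested genes and a threshold of 0.05. Fold changes on that scale understate the change of low genes. The script was tested on simulated data.

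Alternatives were other pseudocounts (0.1 and 0.01), filters, scalings and variance models, and leaving out each library. Named with library values were the members past the test, the 10 of smallest p, the 10 of highest mean level and the members of related pairs. The members, gene lists and marker lists were chosen with earlier results of these data known. The labels name each library as a separate rat and give no batch, date or pairing. The single values of 1 member and of 1 partner gene are not reported here, and counts and medians include both.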

Additional observations from a re-analysis of the deposited data

How the results depend on the processing

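Across 11 other settings and 6 fits that each left out 1 library, the number of carriers past limma stayed at 0 except with weights per library, where it was 1, and among genes above 0 in all 6 libraries, where it was 1 (Slc25a26 both times). The second setting was added after the data were seen. In those settings 940 and 430 genes passed in all, against 38. The count over all genes was 20 with no filter and 84 with a robust variance prior, and 37 to 71 when a library was left out. The members' median log2 fold change was -0.053 with median-ratio scaling and -0.095 with quantile normalization, against -0.45, and -0.54 to -0.31 when a library was left out. The ratio of summed levels was 0.953 with median-ratio scaling and 0.627 to 0.778 when a library was left out. The difference in the Slc25a4 share was -3.92 to -2.29 percentage points when a library was left out. Partner genes past the test numbered 4 with weights per library, 1 (Sfxn1) among genes above 0 in all libraries, and 0 to 1 when a library was left out (Timm22 without untreated replicate 1). The cause of these differences was not tested.

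Log2 fold changes of single genes were compared across settings for 24 members. Under median-ratio scaling and under quantile normalization, 5 of these turned from below to above 0. The values, in that order, were 0.0055 and 0.0014 for Slc25a13, 0.013 and 8.56e-05 for Slc25a18, and 0.045 and 0.013 for Slc25a22. They were 0.091 and 0.025 for Slc25a23 and 0.084 and 0.0037 for Slc25a5. Over all 30 tested members, 28 were below 0 as deposited and 18 after median-ratio scaling. The log2 fold change of Slc25a42 was -0.014 without manipulated replicate 5 and ran up to 0.631 without manipulated replicate 6. No paired analysis was possible because the untreated and manipulated libraries share no replicate numbers. Keeping symbols with joined rows could add no member. Each joined member lacked a row of its own in some library, and symbols missing from a library were still left out. Depth is unknown, so counting error could not be set beside the spread of 3 libraries.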
